A study of Mus musculus with 12 samples.

Results

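Tfrc, the gene for transferrin receptor, was followed in the left ventricle (LV) of male C57BL/6J mice. It is 1 of 15 genes that could be named on this array, out of 60930 non-control probes. Its probe was the custom probe that the array files tie to the RefSeq transcript of Tfrc, and it was printed in 20 spots on each array. The 12 arrays came from 12 separate ventricles in 4 groups of 3, harvested 4 weeks after surgery: wild-type (WT) mice after sham surgery, WT mice after myocardial infarction (MI), MIAT KO mice after sham surgery and MIAT KO mice after MI. MIAT KO mice lacked the long noncoding RNA Miat in the whole body, so no cell type of the heart was singled out. WT mice were 13 to 14 weeks old and MIAT KO mice 15 to 16 weeks old, so genotype and age cannot be told apart. The Miat transcript was not analysed here, so nothing checked the genotype labels.

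Transferrin receptor sits in the plasma membrane, binds iron-loaded transferrin from the blood and carries it into the cell by endocytosis. It is the main route of iron uptake in many cells, and cardiac muscle needs that iron for its mitochondrial enzymes and for myoglobin. In most cells the level of its mRNA is set largely by iron regulatory proteins, which bind the messenger and protect it from decay when iron in the cell is low. Transcription of the gene is also known to respond to hypoxia-inducible factors.

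The sequence around the annotated start of Tfrc is shown because hypoxia after infarction is one known route to its transcription. RefSeq (GRCm38.p6) holds 2 Tfrc starts. The window of the upstream start, chr16:32608646-32608945 on the plus strand, is printed 5′ to 3′. Capitals mark ACGTG, 1 form of the hypoxia response core.
Tfrc promoter window: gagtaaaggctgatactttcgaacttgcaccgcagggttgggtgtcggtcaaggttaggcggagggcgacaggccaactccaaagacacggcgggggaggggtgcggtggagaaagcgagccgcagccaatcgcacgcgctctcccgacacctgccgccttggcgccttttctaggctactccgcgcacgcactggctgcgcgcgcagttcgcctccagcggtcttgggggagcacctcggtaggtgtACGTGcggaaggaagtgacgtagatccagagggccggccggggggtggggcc
ACGTG was searched on both strands and was found 1 time, at base 249 of the 300 bases. At least 1 match to ACGTG stood in 19.6% of the 32851 promoter windows of this length. The other form of the core, GCGTG, was not searched, so neither number covers it. A match describes the letters only, and the arrays measured the transcript and not the activity of this promoter. The array design itself names another genome build, so these coordinates belong to RefSeq alone.

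All 20 Tfrc spots were well above background and none was saturated on any of the 12 arrays. The median raw spot signal was 37.2 to 220.04 times the local background. Values below are the mean over the spots of the log2 processed signal minus the 75th percentile of that array, so a difference of 1 is a doubling. The Tfrc spots within each array lay close together, with an SD of 0.05 to 0.08. This SD holds no error of RNA preparation, labelling or hybridisation, since the spots share them.

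In WT sham ventricles Tfrc lay at 2.27, 2.48 and 2.73 in replicates 1, 2 and 3. These 3 arrays were the tightest of the 4 groups, with a mean of 2.49 ± 0.23 (SD, n = 3). In WT MI ventricles the values were 2.25, 3.60 and 1.60 in replicates 1, 2 and 3. Replicate 3 was the lowest of all 12 arrays and replicate 2 the second highest, a 4.004-fold range within 1 group.

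In MIAT KO sham ventricles the values were 1.86, 2.93 and 3.13 in replicates 1, 2 and 3. Replicate 1 stood below the other two, and the group mean was 2.64 ± 0.69 (SD, n = 3). In MIAT KO MI ventricles the values were 3.05, 3.64 and 3.02 in replicates 1, 2 and 3. All 3 lay in the upper part of the series, and the mean of 3.24 ± 0.35 (SD, n = 3) was the highest of the groups. The WT MI mean was 2.49 ± 1.02 (SD, n = 3). The order of the group means was thus WT MI and WT sham almost level, then MIAT KO sham, then MIAT KO MI, and the ranges of every pair of neighbours in that order overlapped.

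The same arrays stood at the ends before any scaling between arrays. The median processed signal of the Tfrc spots was 1120 in WT MI replicate 3 and 1176 in MIAT KO sham replicate 1, against 5540 in WT MI replicate 2 and 5680 in MIAT KO MI replicate 2. In the authors' deposited log2 values these arrays also held the ends, with 10.2, 10.6, 11.95 and 12.5 in the same order.

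**Figure D1:**
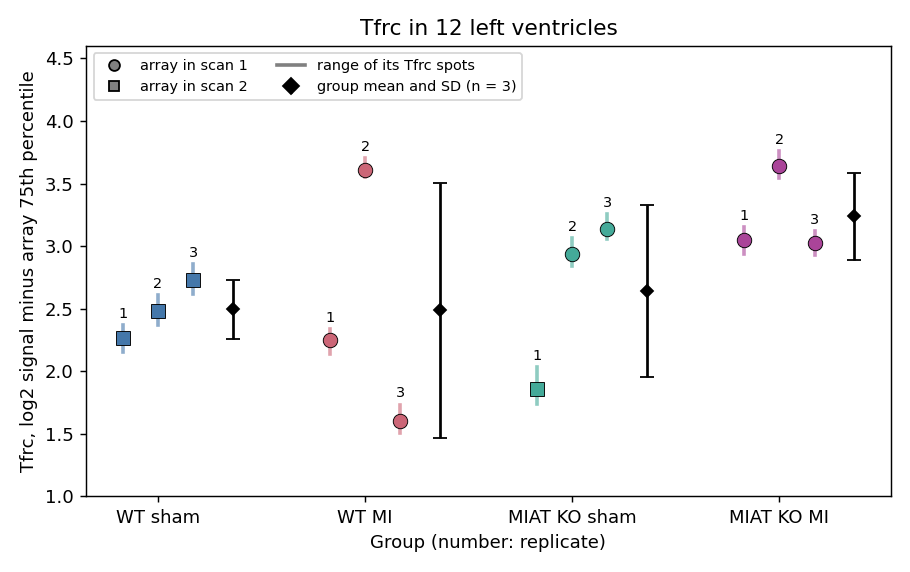
Tfrc on each array (y axis, log2 signal minus the array's 75th percentile) by group. Circles and squares are arrays in scan 1 and scan 2, the line behind each is the range of its Tfrc spots, and the diamond with bars is the group mean and SD (n = 3). WT MI spans 1.60 to 3.60, and the 3 MIAT KO MI arrays lie between 3.02 and 3.64.

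The arrays also differed by scan, which largely follows the groups, and within groups by age and by their pattern over all probes. The file headers put the arrays in 2 scans, taken here as the batch: scan 1 holds all 6 MI arrays and MIAT KO sham replicates 2 and 3, and scan 2 holds the 3 WT sham arrays and MIAT KO sham replicate 1. Tfrc was 1.86 to 2.73 on the 4 arrays of scan 2 and 1.60 to 3.64 on the 8 arrays of scan 1. MIAT KO sham replicate 1 was also 16 weeks old, against 15 weeks for the other two of its group. On the first principal component of all probes, which held 50.1% of the variance, WT MI replicate 2 lay farthest out, at 159 against 65.9 and 47.2 for the other WT MI arrays and -53.6 to -0.11 for all others. The part of scan and of this array in the Tfrc values was not tested beyond the fits given below.

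Whether infarction altered Tfrc in WT ventricles was compared first. The group means were 2.49 for both surgeries, so that Tfrc differed by only -0.01 (SE 0.46; limma, adjusted p = 0.99 by Benjamini-Hochberg over 52300 probes). The 95% interval ran from -1.03 to 1.02, or 0.488-fold to 2.03-fold, so a doubling or a halving lies at its edge. None of the 3 WT MI arrays lay inside the sham range: 1 was above all sham arrays and 2 were below all of them. In this comparison 26.6% of the probes tested were called at an adjusted p under 0.05. The difference rested on single ventricles, at -0.57 without WT MI replicate 2 (adjusted p = 0.31 in limma), 0.43 without WT MI replicate 3, and 0.11 without WT MI replicate 1 or WT sham replicate 3. These 2 groups share no scan, so there is no value within a scan. Scan as a block, which rests on MIAT KO sham replicate 1, gave -1.19 (adjusted p = 0.31 in limma).

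The same surgery was compared in the MIAT KO ventricle. Tfrc was at 3.24 after MI and 2.64 after sham surgery, a difference of 0.60 or 1.51-fold, which did not pass the test (SE 0.46, adjusted p = 0.70 in limma). The 95% interval ran from -0.43 to 1.62. The exact two-sided permutation p was 0.3, where 0.1 is the smallest that 3 arrays against 3 can give. Of the 3 MI arrays, 1 lay above all sham arrays and 2 lay within the sham range. Limma called 0 of the 52300 probes in this comparison, 0% of those tested, with 4895 at an unadjusted p under 0.05. Without MIAT KO sham replicate 1, which is also the comparison within scan 1, the difference was 0.20 (adjusted p = 0.94 in limma). With age as a covariate it was 1.01, from a slope that in MIAT KO sham also rests on replicate 1.

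The genotypes were then compared within each surgery. After sham surgery the means were 2.64 in MIAT KO and 2.49 in WT, which differ by 0.15 (SE 0.46, adjusted p = 0.90 in limma, 95% interval -0.88 to 1.17). In this comparison 0.0402% of the probes were called. The SE is the same for each pair of groups because the fit pools the spread of all groups. Fitted on only the arrays compared, the SE was 0.34 here and 0.36 for MI in MIAT KO. It was 0.48 for MI in WT and 0.49 for genotype in MI, and no Tfrc difference passed. No MIAT KO sham array fell inside the WT sham range: replicates 2 and 3 lay above all WT sham arrays and replicate 1 below all of them. The difference was 0.54 without MIAT KO sham replicate 1, and within scan 2, where that array stands alone for its genotype, it was -0.64 (adjusted p = 0.11 in limma). Without MIAT KO sham replicate 3 it was -0.10, without replicate 2 it was 0.00, and without WT sham replicate 1 it was 0.03.

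After MI, Tfrc was at 3.24 in MIAT KO and 2.49 in WT ventricles. This difference of 0.75, or 1.68-fold, was the largest of the 4 between pairs of groups and did not pass the test (SE 0.46, adjusted p = 0.23 in limma, 95% interval -0.28 to 1.78). The exact two-sided permutation p was 0.3, with 0.1 the smallest possible. In this comparison 24.1% of the probes were called (12618 of 52300). That count depends on the fit: it was 339 with only the arrays compared, and 0 to 16437 over all alternatives. WT MI replicate 2 decided the overlap: at 3.60 it lay above 2 of the 3 MIAT KO arrays, whereas the other two WT arrays lay below all 3. Without it the difference was 1.31 (adjusted p = 0.059 in limma), without WT MI replicate 3 it was 0.31, and with both WT MI replicate 2 and MIAT KO sham replicate 1 left out it was 1.31 with an adjusted p of 0.019 in limma. That pair was picked after the data were seen, for scan and principal component, and the arrays are also the high and the low end of their groups for Tfrc, so leaving them out shrinks the spread of the fit by construction. All 6 arrays of this comparison lay in scan 1. Neither a scan term nor a fit within that scan could therefore alter the difference of 0.75.

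Whether the response to MI differed between genotypes was tested as the MI effect in MIAT KO minus that in WT. It came to 0.60 (SE 0.66, adjusted p = 0.57 in limma, 95% interval -0.85 to 2.05), where 3.74% of the probes were called. Single arrays moved it from 0.16 without WT MI replicate 3 to 1.16 without WT MI replicate 2. It was 0.21 without MIAT KO sham replicate 1. Scan as a block, which rests on that same array, gave 1.39, and none of these passed.

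Averaging over the other factor used all 12 arrays for each question. MI exceeded sham by 0.29 over both genotypes (SE 0.33, adjusted p = 0.55 in limma, exact two-sided permutation p = 0.46 with labels permuted within genotype), with 8.34% of the probes called. MIAT KO exceeded WT by 0.45 over both surgeries (SE 0.33, adjusted p = 0.37 in limma, exact two-sided permutation p = 0.26 with labels permuted within surgery), with 13.4% of the probes called. The smallest p that these permutations can give is 0.005. The 95% intervals were -0.43 to 1.02 for surgery and -0.28 to 1.18 for genotype, and neither comparison passed the test. The surgery difference was 0.01 without WT MI replicate 2 and 0.10 without MIAT KO sham replicate 1, and it turned to -0.49 with scan as a block. The genotype difference was 0.06 with scan as a block and 0.23 without WT MI replicate 3. It was 0.93 (adjusted p = 0.021 in limma) without the same 2 arrays left out above. Both values with scan as a block rest on MIAT KO sham replicate 1, since only its group had arrays in both scans.

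**Figure D2:**
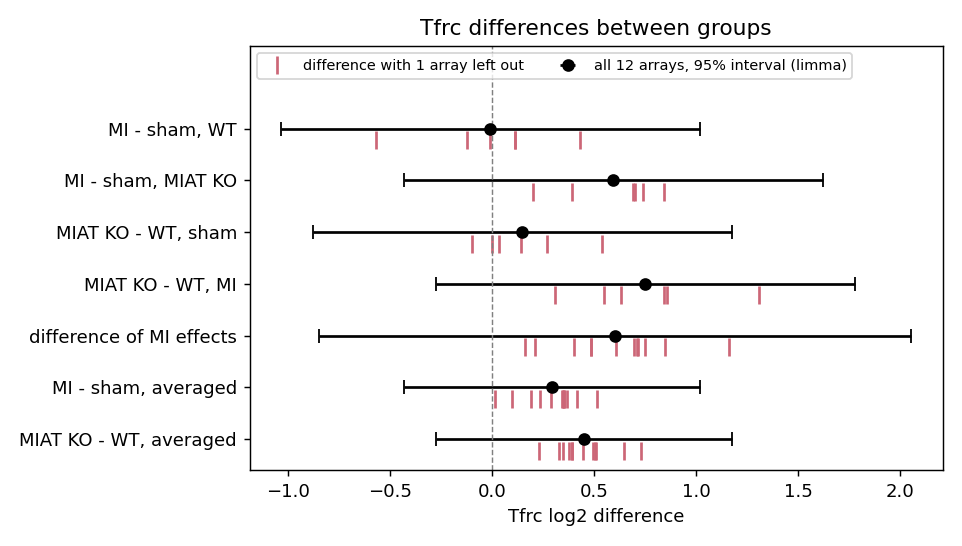
Tfrc log2 difference (x axis) in 7 comparisons. Points with bars are the limma estimate and 95% interval over all 12 arrays, and red ticks are the estimates with 1 array left out. Every interval spans 0, and the ticks of MI minus sham in WT run from -0.57 to 0.43.

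Tfrc varied widely between ventricles of the same group. Its pooled SD between replicates was 0.65, 10.3 times the median SD over the spots of an array (0.06). The spots of 57 of the 66 pairs of arrays did not overlap, and neither did those of 10 of the 12 pairs within a group. This ratio and these counts were made for Tfrc alone. They do not show whether other probes with many spots differ from it. The pairs within a group that overlapped were MIAT KO sham replicates 2 and 3 and MIAT KO MI replicates 1 and 3. Each ventricle had 1 array, so differences between ventricles and between hybridisations cannot be told apart in these values.

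Among the 52227 probes measured on every array, 96.3% had a smaller pooled SD than Tfrc, and the median probe had 0.20. Tfrc also had the highest pooled SD of the 15 named genes. The other 14 ranged from 0.04 to 0.37, the latter for B2m, which encodes beta-2 microglobulin of the MHC class I complex. By group it was second to B2m in WT sham (0.23 against 0.25) and in MIAT KO MI (0.35 against 0.59), and first in the other two groups. The Tfrc SD exceeded that of 83.6% of the probes in WT sham, 98.3% in WT MI, 96.6% in MIAT KO sham and 87.0% in MIAT KO MI. In each of the 2 wide groups the array farthest from the group mean was left out, which shrinks the SD by construction. Without WT MI replicate 2 the SD of WT MI went from 1.02 to 0.46 (n = 2), against a median of 0.21 over all probes in the full group. Without replicate 1, the array of its group in the other scan, the SD of MIAT KO sham went from 0.69 to 0.14 (n = 2). The median over all probes in that full group was 0.17. These percentages describe the arrays and carry no test. In bulk tissue, fewer cells that express the receptor and less of its RNA per cell cannot be told apart.

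**Figure D3:**
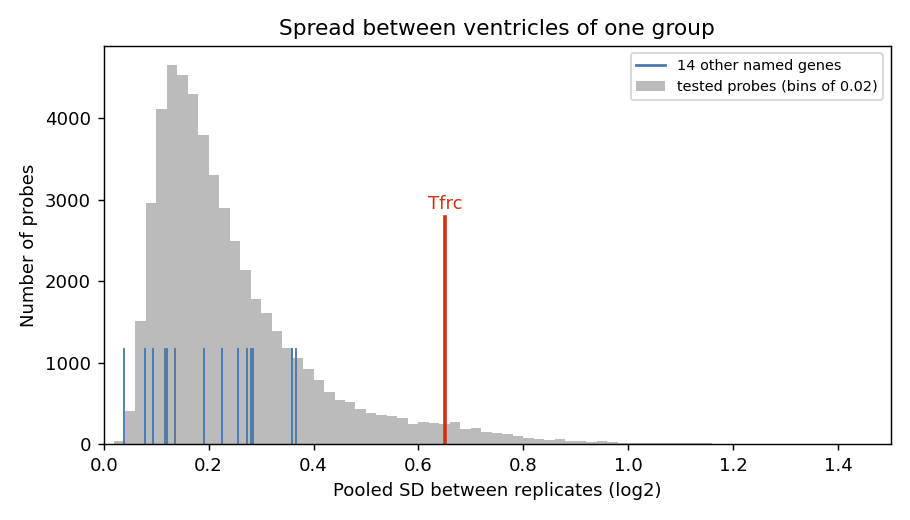
Distribution of the pooled SD between replicates (x axis, log2) over the tested probes (grey bars, number of probes, drawn up to an SD of 1.5). The red line marks Tfrc at 0.65 and the blue lines the other 14 named genes, which end at 0.37.

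The genes whose pattern over the 12 arrays was most like that of Tfrc were sought by Pearson correlation, given as a description because the genes are picked for it. Of the 14 other named genes, Gk, which encodes glycerol kinase, came first with r = 0.43 (Spearman's rho = 0.50). It was followed by Tbp, the TATA-binding protein (r = 0.21, rho = 0.10), and Hprt, an enzyme of purine salvage (r = 0.19, rho = 0.16). The lowest was Hsp90ab1, a cytosolic chaperone (r = -0.55, rho = -0.50). Without the 2 arrays farthest from the Tfrc median (WT MI replicate 3 and MIAT KO sham replicate 1), the values over 10 arrays were 0.23 for Gk, -0.22 for Tbp, 0.41 for Hprt and -0.46 for Hsp90ab1. On the 8 arrays of scan 1 they were 0.14, 0.20, -0.05 and -0.53. Taken as deviations from the group means, the ranking changed: r was 0.25 for Gk, 0.22 for Tbp, 0.65 for Hprt and -0.46 for Hsp90ab1, and the highest was 0.77 for Tuba1b, an alpha-tubulin, which is named for that value after it was seen. Gk shared the low value of MIAT KO sham replicate 1, at 1.99 against 2.80 and 3.29 in the other two of that group, but not the high one of WT MI replicate 2, where it was 2.16, its lowest in WT MI.

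Among the 48065 other probes well above background and measured on all 12 arrays, only 1 had an r with Tfrc above 0.9. This probe, ASMM10P011674, which has no gene name in the tables, had r = 0.96 and rho = 0.99. It stayed at 0.92 over the 10 arrays, at 0.95 in scan 1 and at 0.97 for deviations from the group means. Whether it reads another part of the Tfrc transcript, and so the same gene again, could not be settled from the tables. It was read from 1 spot per array and spanned 1.01 to 1.93, a narrower range than Tfrc. Its lowest arrays were WT MI replicate 3 (1.01) and MIAT KO sham replicate 1 (1.04), as for Tfrc. Its highest was WT MI replicate 2 (1.93), the second highest for Tfrc. On MIAT KO MI replicate 2, the highest for Tfrc, the probe was at 1.64. The next probe, ASMM10P050247, had r = 0.88 (rho = 0.86). The most opposed were ASMM10P006032 (r = -0.88, rho = -0.88) and humanlincRNA1841+_P1 (r = -0.86, rho = -0.74). All these points share the arrays and their scaling.

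**Figure D4:**
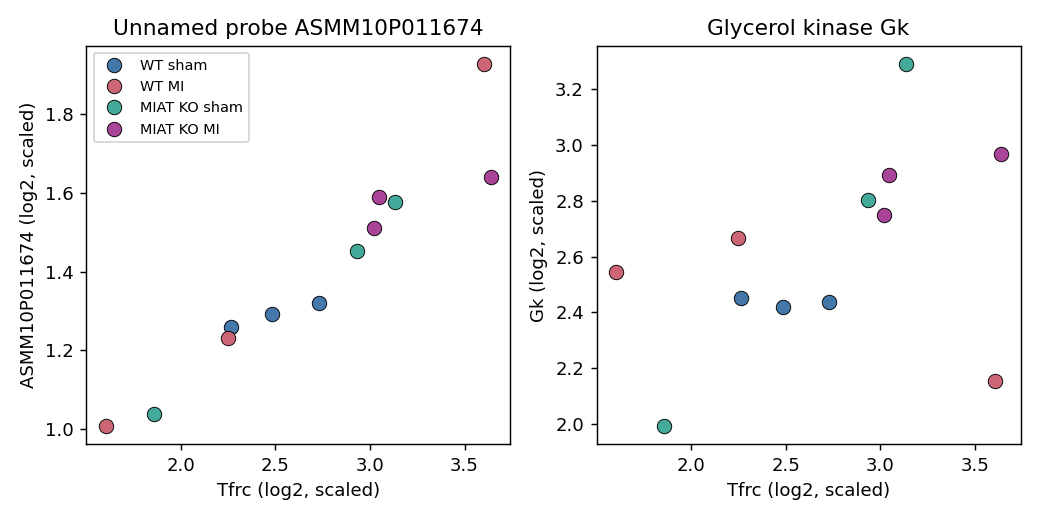
Scaled log2 value of probe ASMM10P011674 (left, y axis) and of Gk (right, y axis) against Tfrc (x axis) on 12 arrays, coloured by group. The left panel rises along the Tfrc axis, with values between 1.01 and 1.93 (r = 0.96), whereas the right panel is scattered (r = 0.43).

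Other genes of iron handling could not be set beside Tfrc. Of a list of 36, among them the iron exporter Slc40a1, the ferritin genes Fth1 and Ftl1, the iron regulatory protein genes Aco1 and Ireb2 and the second transferrin receptor Tfr2, 0 were paired with a probe by the tables used here. The same held for 28 markers of cardiomyocytes, fibroblasts, endothelial cells, macrophages and red cell precursors, so neither the tissue label nor the cell makeup of a ventricle was checked.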

How the data were processed

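RNA of 12 ventricles was measured on 1-colour arrays. After removal of ribosomal RNA, the RNA was amplified by random priming and labelled with Cy3, per the labels' protocols. The deposited scanner files hold spot intensity, and quality flags of other units, per the file headers. The submitters' processing notes name Agilent Feature Extraction 11.0.1.1. The deposited series table holds the authors' log2 values, for which no normalization method is stated; on each array they correlated with the scanner values at 0.9988 or more, and each column had a median of 6.91.

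The log2 processed signal minus the 75th percentile of the non-control spots was averaged over the spots of a probe, leaving out spots flagged as outliers (0 or 1 of the 20 Tfrc spots per array). Probes well above background on all arrays of at least 1 group, except negative controls, were tested (52300). Groups were fitted with limma 3.58.1 (R 4.3.3) in 1 model over 12 arrays; called means an adjusted p under 0.05, by Benjamini-Hochberg. The fit was tested on simulated data. Scan is the scan named in the file headers. Between 82.6% and 88.1% of non-control spots were well above background, and the number of arrays limits the precision. The labels call the ventricles independent biological samples.

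Accessions were matched to symbols without their version through RefSeq (GRCm38.p6), and all 15 matched. The gene, the lists and the rule for named genes (the 3 named genes most like Tfrc and the least like, and 2 unnamed probes at each end) were chosen with earlier results of these data known. Figures were drawn with matplotlib 3.10.9. Alternatives covered scaling, background correction, the authors' values, filters, spot summaries, replicate, scan and age terms, and leaving out arrays.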

Additional observations from a re-analysis of the deposited data

How the results depend on the processing

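Over 179 refits of the 7 Tfrc comparisons, 167 kept the direction and the side of the threshold, 10 turned the direction and 2 passed the threshold. MI minus sham in WT, -0.01 at first, was 0.012 under median centring, and -0.22 under quantile normalization. The genotype difference in sham turned to -0.64 with scan as a block and within scan 2 and to -0.067 with scan as a random block. Wherever scan as a block moved a value, the move rested on MIAT KO sham replicate 1. MI averaged turned to -0.49 with scan as a block and to -0.18 without MIAT KO sham replicate 1 and WT MI replicate 2. That pair was picked after seeing the data, and without it the genotype difference passed in MI (1.31) and on average (0.93). The cause was not tested.

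Leaving out single arrays gave ranges of -0.57 to 0.43 for MI in WT, 0.20 to 0.84 for MI in MIAT KO, -0.10 to 0.54 for genotype in sham, 0.31 to 1.31 for genotype in MI, 0.16 to 1.16 for the difference of MI effects, 0.01 to 0.51 for MI averaged and 0.23 to 0.73 for genotype averaged. The genotype difference in MI was 1.02 with quantile normalization and 1.03 in the authors' deposited values (adjusted p = 0.093 and 0.091 in limma), within a range of adjusted p over its alternatives of 0.019 to 0.83. With age as a covariate the genotype differences were 1.20 in sham, 2.43 in MI and 1.81 on average, and none passed. The genotypes share no age, so these values extend a slope taken from age differences within groups. In MIAT KO sham that slope rests on replicate 1, which is also the array of its group in scan 2. These values therefore cannot separate age from genotype.

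Every group held replicates 1, 2 and 3, so the replicate block moved only the SE and the adjusted p. The latter ran from 0.18 (genotype in MI) to 0.99 (MI in WT) in limma, with no change of call. Deviations of same-numbered arrays from their group means correlated at -0.34 to 0.34 over 18 pairs, 6 of them over 0.1. Differently numbered arrays were not set beside these pairs, so whether same-numbered arrays share more than a number was not tested. Called probes over the alternatives ran from 4025 to 17751 for MI in WT (13933 at first), 0 to 637 for MI in MIAT KO (0), 0 to 5337 for genotype in sham (21), 0 to 16437 for genotype in MI (12618), 0 to 4511 for the difference of MI effects (1956), 39 to 10575 for MI averaged (4361) and 0 to 11799 for genotype averaged (7024). Every Tfrc spot was well above background on every array.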
